A study of Homo sapiens with 8 samples.

Results

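Open chromatin at 10 antiviral effector genes, IFIT1, IFIT2, IFIT3, OAS1, OAS2, OAS3, MX1, ISG15, BST2 and RSAD2, was followed in the human osteosarcoma line U2OS. The genes were chosen by name, from 62062 annotated genes. FAIRE-seq enriches DNA that phenol-chloroform extraction leaves free of cross-linked protein, so that a peak marks open chromatin. A peak belonged to a promoter when it came within 1 kb of an annotated transcription start site (TSS), and it was also counted when it lay in the gene body or within 10 kb of it. By these rules 7 of the 10 genes had a promoter peak in at least 1 of 8 libraries, against 22301 genes in all, and 75 different peaks lay in or near the 10 genes.

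The 8 libraries came from 4 single clones, WT_4 and WT_5, which are wild type (WT), and KO_C5 and KO_D2, which carry a knockout (KO) of the zinc finger gene ZBTB48. From each clone 1 library was made without treatment and 1 after 250 U/ml interferon gamma (IFNγ), which makes 4 groups of 2 libraries. The labels give 24 hours of IFNγ, whereas a longer time stands in the text of the study, so the duration is uncertain. The comparisons ask whether promoters of these genes were more open after IFNγ and whether the loss of ZBTB48 went with a difference.

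IFNγ binds its receptor and activates JAK kinases, and the signal reaches promoters through transcription factors that bind gamma-activated sites (GAS). Many antiviral genes also carry the interferon-stimulated response element (ISRE), which IRF1 can bind. The effector genes act at different steps of infection. IFIT proteins bind viral RNA, OAS enzymes sense double-stranded RNA and make 2-5A, MX1 is a dynamin-like GTPase that traps viral nucleocapsids, ISG15 is a ubiquitin-like modifier, BST2 (tetherin) holds budding virions at the membrane, and RSAD2 (viperin) makes an antiviral nucleotide.

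After IFNγ all 4 libraries had a promoter peak at OAS3, ISG15 and the start that RSAD2 shares with its neighbour CMPK2. Of these libraries 3 had one at OAS2, MX1 and BST2, and none had one at the promoters of IFIT1, IFIT2, IFIT3 and OAS1. The values used are the fold enrichment of the strongest promoter peak, and the percentile of its −log10 p within the list of its own library, where 100 is the strongest peak of the list and 0 stands for no promoter peak. OAS3 and RSAD2 had higher percentiles in each of the 4 IFNγ libraries than in any untreated library. That held for 2 of the 7 members with a promoter peak and for 0.789% of all 22301 genes.

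The sequences of the promoters are shown first, because they differ in whether a peak was found on them. RefSeq promoter windows (GRCh38.p14) of 250 bases before to 50 after a start were at hand for 8 of the 10 genes; OAS2 and IFIT2 had no entry. Each was searched on both strands for the ISRE core GAAANNGAAA and for the GAS motif TTCNNNGAA. Overlapping matches were both counted. Of 35116 promoter windows, 3.57% held the ISRE core and 7.66% the GAS motif. Stretches around matches are printed 5′ to 3′ on the strand of the gene, with the matches in capitals, and a match on the opposite strand reads TTTCNNTTTC. Stretches are short where an annotated transcript has its untranslated region there, and positions count the start as 0.

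OAS3, distal match, chr12:112938321-112938350, plus strand: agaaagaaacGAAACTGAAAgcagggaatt
OAS3, match at the start, chr12:112938452-112938481, plus strand: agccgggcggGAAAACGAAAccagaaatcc
MX1, chr21:41420559-41420588, plus strand: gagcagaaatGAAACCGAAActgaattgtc
BST2, chr19:17405741-17405770, minus strand: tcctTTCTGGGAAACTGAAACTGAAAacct
ISG15, chr1:1013247-1013526, plus strand: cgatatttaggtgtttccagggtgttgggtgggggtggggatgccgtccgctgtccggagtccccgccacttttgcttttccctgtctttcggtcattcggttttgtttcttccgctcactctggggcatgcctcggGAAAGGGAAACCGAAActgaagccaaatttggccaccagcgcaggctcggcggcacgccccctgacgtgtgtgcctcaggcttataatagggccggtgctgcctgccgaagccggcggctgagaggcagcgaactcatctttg
RSAD2, downstream start, chr2:6877622-6877651, plus strand: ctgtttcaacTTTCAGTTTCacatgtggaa
IFIT1, chr10:89392373-89392575, plus strand: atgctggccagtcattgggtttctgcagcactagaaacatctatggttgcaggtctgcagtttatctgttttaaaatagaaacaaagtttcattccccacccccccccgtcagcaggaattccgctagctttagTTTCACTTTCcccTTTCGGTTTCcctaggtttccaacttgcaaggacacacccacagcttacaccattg

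OAS3 held ISRE matches at −143 to −134 and −12 to −3, and 7 of the 8 libraries had a peak on this window. The most upstream RefSeq window of MX1 held 1 ISRE match, at 11 to 20, and had a peak in 4 libraries. A downstream MX1 window held an ISRE match at −196 and an overlapping GAS match at −189 and had no peak in any library. In ISG15 the matches at −113 and −107 overlapped, and 5 libraries had a peak there. BST2 had overlapping ISRE matches at −130 and −124, a GAS match at −136 that overlaps the first of them and another GAS match at −58, with a peak in 3 libraries. The last pair of stretches had no peak in any library. The downstream start of RSAD2 held an ISRE match on the opposite strand at −145 to −136, and IFIT1 held opposite-strand matches at −116 and −103. IFIT3 had 2 ISRE matches at each of its 2 RefSeq starts and no peak on either window, and OAS1 had no ISRE match, 1 GAS match at −168 and no peak. The upstream RSAD2 window and the 3 windows of CMPK2 held neither motif, although the upstream RSAD2 window had a peak in all 8 libraries.

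Facts of the libraries that bear on all values are these. On chromosomes 1 to 22 and X the lists held 16730 to 37533 peaks. Among the 300 weakest peaks of a list the lowest summit held 5 or 6 fragments. After IFNγ the list of WT_4 was shorter (18913 against 21715 peaks), while those of WT_5 (37533 against 29567), KO_C5 (27457 against 19255) and KO_D2 (24727 against 16730) were longer. Percentiles moved with this over all genes. After IFNγ 25.6% of genes had a higher percentile in WT_4, against 74.0% in WT_5, 58.5% in KO_C5 and 68.2% in KO_D2. For each member, values from lists cut to the length of the shortest are therefore given beside the result. Promoter peaks of RUNX2, COL1A1 and COL5A1, markers of mesenchymal and osteoblast cells, were in all 8 libraries. Of 6 such genes 5 had one in some library, among them TWIST1 in the untreated WT_4 library alone (percentile 6.96), and COL1A2 had none. Of 5 leukocyte markers, PTPRC, CD3E, CD79A and CD14 had none, and SPI1 had 1 in the WT_5 IFNγ library alone. Of 4 epithelial markers 3 had a peak in some library, and EPCAM in all 8. The ZBTB48 promoter had a peak in all 8 libraries, which does not check the knockout, since a small edit would leave the promoter in place. A share of cells with open chromatin and a lesser opening in each cell cannot be told apart.

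**Figure D1:**
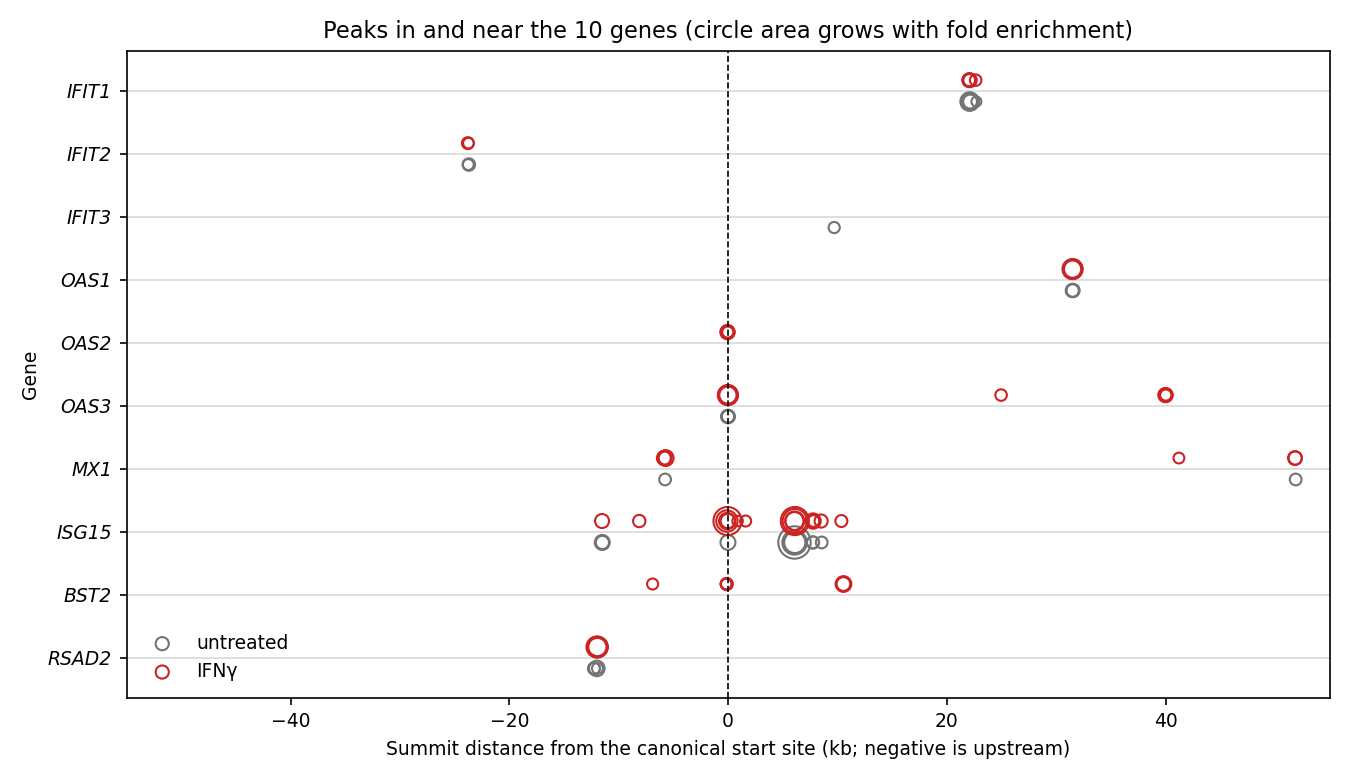
Summits of all peaks in or within 10 kb of the 10 genes, by distance in kb from the canonical start of each gene (x axis) and by gene (y axis), with untreated libraries in grey below the line and IFNγ libraries in red above it and with circle area growing with fold enrichment. OAS2, OAS3, ISG15 and BST2 have peaks at the canonical start, whereas those of MX1 and RSAD2 lie upstream of it and IFIT1, IFIT2, IFIT3 and OAS1 have none there.

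The IFIT genes lie side by side on chromosome 10. IFIT1 (89392546 to 89406487) has 2 annotated starts and IFIT2 (89283694 to 89309271) has 8, and none of them had a promoter peak in any of the 8 libraries. IFIT3 (89327307 to 89377473) had 1 peak, in the untreated WT_5 library, with a fold enrichment of 5.17 at percentile 12.5. It rested on 10 fragments (95% Poisson interval 4.80 to 18.4, counting error only) and lay in an intron, 748 bp past an alternative start and 9692 bp from the canonical one. The absence of a peak says only that none was called at this depth.

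Around the IFIT genes 2 sites were found outside their promoters. A site at the untranslated region of IFIT5, a paralog just past IFIT1, held peaks in all 8 libraries, joined where they overlapped. The untreated KO_D2 peak had its summit at 89415314, whereas the strongest peaks of the other libraries had theirs between 89414636 and 89414739. The percentiles were 56.9 in WT_4, 50.3 in WT_5, 56.4 in KO_C5 and 1.06 in KO_D2 before IFNγ, and 38.5, 44.4, 27.6 and 36.5 after it. They were thus lower after IFNγ in 3 clones. The 2 values of KO_D2 belong to peaks with different summits. The groups overlapped (difference of −4.45 percentile points, exact permutation p = 0.857). A weak site at −5402 bp from the nearest IFIT2 start, in a non-coding exon of LIPA, had fold enrichments of 4.62 to 6.96. It was in 2 untreated libraries (WT_5 and KO_C5) and 2 IFNγ libraries (WT_4 and KO_D2), each from another clone, and the 300 bases around its summit held 2 ISRE matches. For comparison, 4.10% of 52105 such summit windows held the ISRE core. At IFIT5 the RefSeq promoter window held 3 ISRE matches and had a peak on it in 7 libraries.

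The OAS genes are neighbours on chromosome 12 and differed from one another. OAS1 (112905856 to 112933219), with 19 annotated starts, had no promoter peak in any library, and the peak counted within 10 kb of it is that of the OAS3 promoter. OAS3 (112938051 to 112976460) had a peak in 7 libraries, in the untranslated region of its first exon, with each summit within 5 bp of an annotated start. Its untreated fold enrichments were 8.30 in WT_4, 8.03 in WT_5 and 7.09 in KO_C5, and KO_D2 had no peak. After IFNγ they were 18.3 in WT_4, 20.3 in WT_5, 15.2 in KO_C5 and 21.0 in KO_D2. The groups did not overlap. The summits held 19, 23 and 17 fragments before IFNγ and 38, 53, 44 and 70 after it, in the same order of clones. The percentiles were 35.8, 42.3, 25.0 and 0 before IFNγ and 61.7, 71.7, 58.0 and 76.7 after it. Their mean was 25.8 ± 18.6 in untreated and 67.0 ± 8.66 in IFNγ libraries (SD, n = 4 each), a difference of 41.3 percentile points (two-sided exact permutation p = 0.0286, the smallest that 70 assignments allow, and adjusted p = 1 over 22301 genes). With the 2 libraries of a clone kept as a pair, the exact p was 0.125, the smallest that 4 clones allow, and the call was lost. Cut to equal length, the lists gave OAS3 percentiles of at most 16.7 in untreated and at least 31.1 in IFNγ libraries.

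OAS2 (112978395 to 113011723) had a promoter peak in 3 IFNγ libraries and in no untreated library. Its fold enrichment was 8.90 in WT_5, 5.13 in KO_C5 and 9.66 in KO_D2, and WT_4 had no peak. The percentiles were 40.6, 13.6 and 51.5, and the median summit lay 1 bp from an annotated start in the untranslated region. The difference in mean percentile was 26.4 points, which the exact permutation test over 8 libraries did not separate from the spread (p = 0.143). In lists of equal length OAS2 kept a peak in KO_D2 alone, at percentile 28.3, and the difference was 7.08 points (exact permutation p = 1). Within OAS3 a single peak was found in the WT_5 IFNγ library, in a coding exon, at a fold enrichment of 5.65.

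MX1 on chromosome 21 (41420020 to 41470071) has 34 annotated starts. All its promoter peaks lay at upstream starts. Their median summit was at −38 bp from the nearest start and at −5762 bp from the canonical start, which itself had none. The fold enrichment was 5.93 in untreated WT_5, and after IFNγ 9.04 in WT_5, 7.87 in KO_C5 and 12.5 in KO_D2. WT_4 had no MX1 peak with or without IFNγ. The percentiles were 19.3 in untreated WT_5, against 41.4, 22.9 and 49.4 in the 3 IFNγ libraries with a peak, so each of these was above the highest untreated value. With the 0 of WT_4 included, the means were 4.82 ± 9.64 and 28.4 ± 21.96 (SD, n = 4 each; exact permutation p = 0.143). Cut to equal length, the lists left a single MX1 peak, that of KO_D2 after IFNγ, at percentile 25.2, and the difference was 6.29 points in place of 23.6 (exact permutation p = 1). Of the other peaks counted for MX1, 1 site was in an intron shared with TMPRSS2 in 1 IFNγ library and 1 was in a TMPRSS2 intron in 3 libraries.

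ISG15 on chromosome 1 (1001138 to 1014540) had promoter peaks at distinct starts, and the choice of start changed the picture. At the canonical start the fold enrichment was 10.9 in untreated WT_5, with no peak in the other untreated libraries. After IFNγ it was 9.87 in WT_4, 43.5 in WT_5, 13.4 in KO_C5 and 24.1 in KO_D2. The peak was therefore found in 1 untreated and in all 4 IFNγ libraries, and the WT_5 value was the highest promoter fold enrichment among the 10 genes. The percentiles there were 35.8, 83.7, 49.0 and 76.1 after IFNγ, against 48.4 in untreated WT_5 and 0 in the rest. In each clone the canonical start had a higher percentile after IFNγ, but the groups overlapped because the 35.8 of WT_4 was below the 48.4 of untreated WT_5. A second site, near the most upstream start and at −11513 bp from the canonical one, was found in untreated WT_4 (fold enrichment 10.9), untreated KO_C5 (8.02) and WT_5 with IFNγ (9.24). Over all starts the untreated percentiles were 42.2, 48.4, 28.9 and 0, the means were 29.9 ± 21.5 and 61.1 ± 22.5 (SD, n = 4 each), and 3 of 4 clones were higher after IFNγ (exact permutation p = 0.114). With lists of equal length these percentiles were 25.0, 8.84, 18.2 and 0 untreated and 27.5, 63.3, 16.2 and 64.6 after IFNγ, so that KO_C5 in place of WT_4 was the clone that was not higher (difference of 29.9 points, exact permutation p = 0.0857). Beyond ISG15 the AGRN promoter, 6081 bp past the ISG15 start, had a peak in all 8 libraries with fold enrichments from 16.6 to 58.6.

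BST2 on the minus strand of chromosome 19 (17402939 to 17405630) had a promoter peak in 3 IFNγ libraries and in no untreated library. The fold enrichments were 4.52 in WT_5, 5.31 in KO_C5 and 6.70 in KO_D2, and WT_4 had none. The percentiles of 9.98, 11.5 and 26.8 place them in the weaker part of their lists, and the exact permutation p for the difference of 12.1 points was 0.143. BST2 had no promoter peak in any library once the lists were cut to equal length. Summits lay at −190 to −137 bp from the BST2 start, next to the start of the divergent non-coding gene BISPR, so the peak cannot be given to one gene alone. A site 9448 bp downstream of the nearest BST2 start, near CCDC194, was in the IFNγ libraries of WT_5 (fold enrichment 12.3) and KO_C5 (8.78) and in no untreated library.

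RSAD2 on chromosome 2 (6865557 to 6898239) was the 1 member with a promoter peak in all 8 libraries. The peak lay at upstream starts, in the untranslated regions of RSAD2 and of CMPK2, the mitochondrial nucleotide kinase gene on the opposite strand. The same peak was counted for both genes. Its median summit was at −11981 bp from the canonical RSAD2 start, where no library had a peak. The fold enrichments were 5.82 in WT_4, 6.11 in WT_5, 11.9 in KO_C5 and 4.93 in KO_D2 without IFNγ. After IFNγ they were 23.5, 22.04, 22.04 and 17.1. Every IFNγ value was above the highest untreated value. Summits rested on 16, 24, 42 and 14 fragments before IFNγ and 64, 76, 84 and 75 after it. The percentiles were 25.6, 35.4, 53.6 and 7.38 before IFNγ and 75.8, 77.3, 74.9 and 75.5 after it. The mean was 30.5 ± 19.3 in untreated and 75.9 ± 1.03 in IFNγ libraries (SD, n = 4 each). The difference of 45.4 points had a two-sided exact permutation p of 0.0286 and an adjusted p of 1 over 22301 genes, and it ranked 11th among all genes, where OAS3 ranked 41st. Paired by clone, the exact p was 0.125 here too, and this call was lost as well. Summits in untreated WT_4 and WT_5 lay near position 6865523 and 6865503, and those of the other 6 libraries between 6865769 and 6865833. In WT_4 and WT_5 the values before and after IFNγ therefore belong to different summits. The RSAD2 percentiles in lists of equal length were 3.40, 0, 46.6 and 7.38 untreated and 72.7, 49.1, 58.8 and 63.8 after IFNγ, so the groups were still apart but the IFNγ libraries were not as close to one another.

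**Figure D2:**
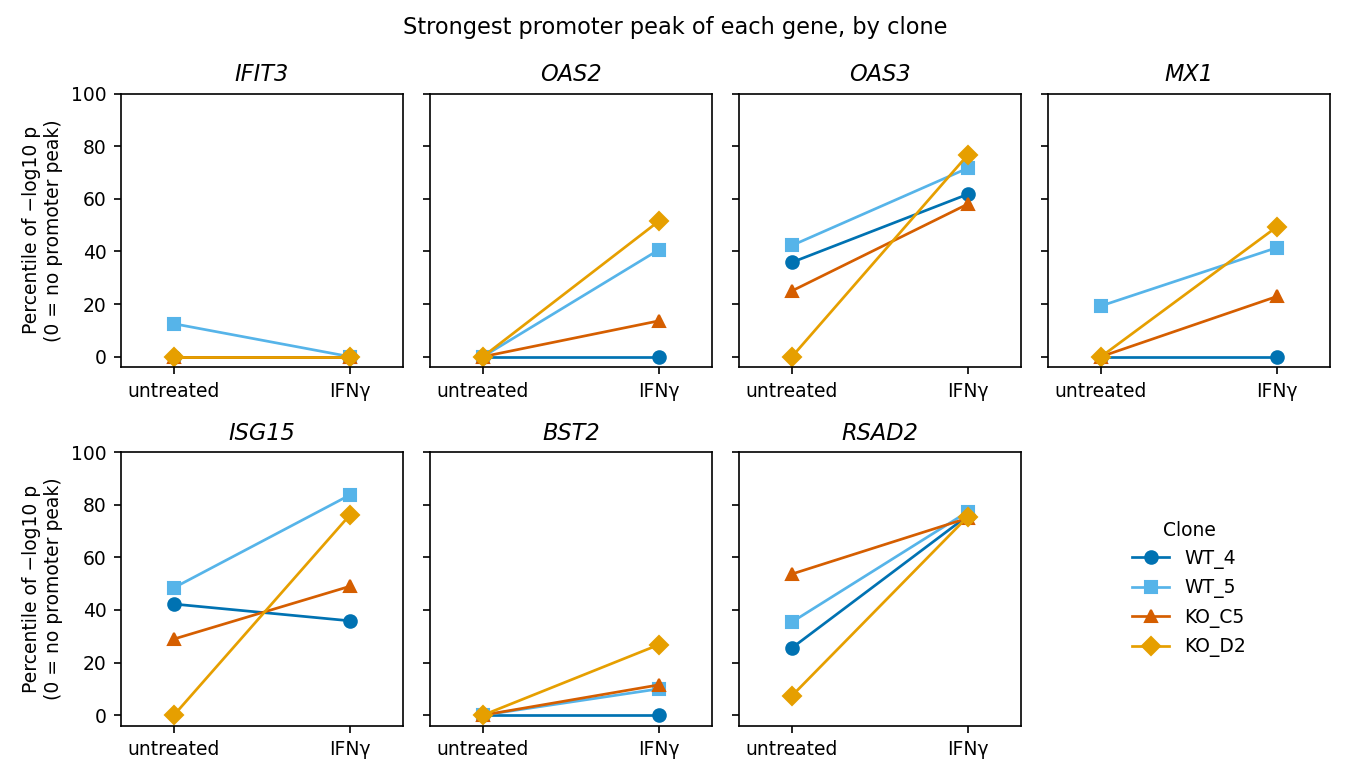
Percentile of −log10 p of the strongest promoter peak (y axis, 0 for no peak) in the untreated and the IFNγ library of each clone (x axis), with 1 panel per gene and a line per clone. The lines of OAS3 and RSAD2 go up in all 4 clones, and the WT_4 line is flat at 0 for OAS2, MX1 and BST2.

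**Figure D3:**
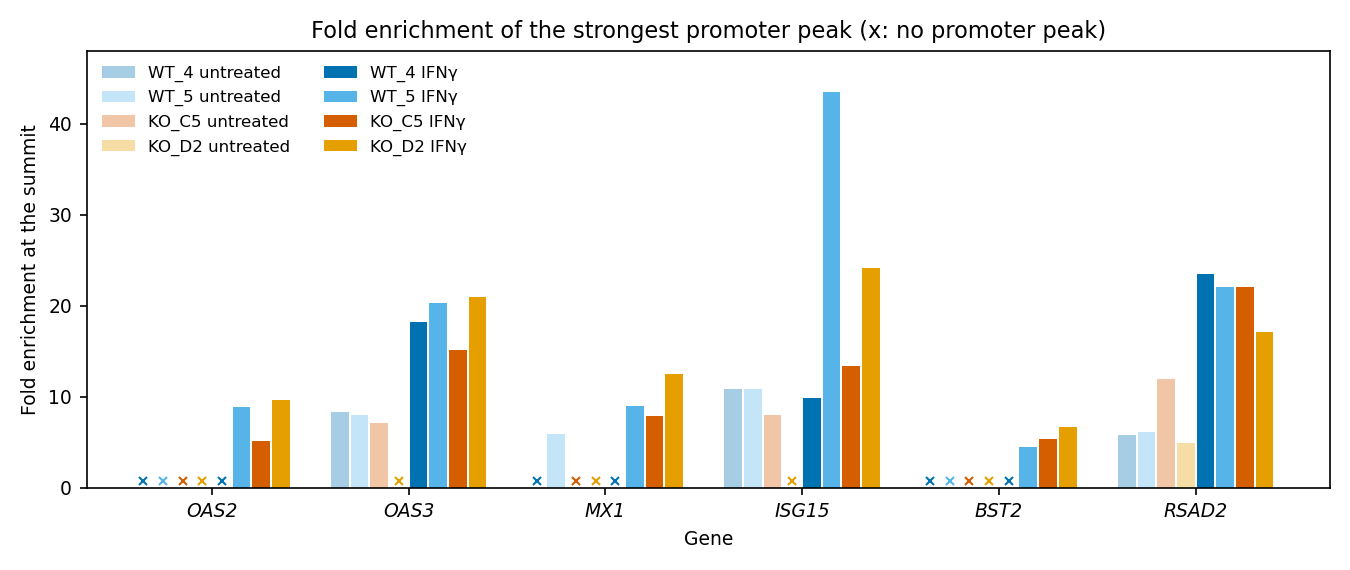
Fold enrichment of the strongest promoter peak (y axis) in each of the 8 libraries for 6 genes (x axis), with pale bars for untreated and full bars for IFNγ libraries, a colour per clone and a cross for no peak. OAS3 and RSAD2 reach 15.2 or more in each IFNγ library and 11.9 or less in each untreated one, and the ISG15 bar of WT_5 after IFNγ is the tallest at 43.5.

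Across the members, the number with a promoter peak was 3, 5, 3 and 1 in untreated WT_4, WT_5, KO_C5 and KO_D2, and 3, 6, 6 and 6 after IFNγ. The mean was 3 ± 1.63 untreated and 5.25 ± 1.5 after IFNγ (SD, n = 4 each), a difference of 2.25 ± 2.22 over the 4 clones. In lists of equal length this difference was 1.5. The share of all genes that had a promoter peak moved the same way or, in WT_4, fell. It was 81.0, 85.4, 72.3 and 72.5% untreated and 75.2, 91.3, 83.3 and 80.0% after IFNγ, in the same order of clones. WT_4 had the same 3 genes, OAS3, ISG15 and RSAD2, in both states. Of the 7 members with a promoter peak in some library, 5 had one in more IFNγ than untreated libraries (OAS2, OAS3, MX1, ISG15 and BST2), against 21.2% of all genes. No member was lower in every IFNγ library. Members that were higher after IFNγ in all 4 clones numbered 2, OAS3 and RSAD2, against 13.3% of all genes. The median difference between IFNγ and untreated libraries was 26.4 percentile points over the 7 members with a promoter peak and 2.88 over all genes. That 26.4 is the value of OAS2, which entered the 7 through peaks in IFNγ libraries alone, as BST2 did. IFIT1, IFIT2 and OAS1, without a promoter peak, are not in this median. In lists of equal length the OAS2 difference was 7.08 points.

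These counts depended in part on the IFNγ library of WT_4. Without that library, 6 members (all with a promoter peak other than IFIT3) were higher in every IFNγ than in every untreated library, against 7.04% of all genes. Without the clone, 6 were higher after IFNγ in the 3 others, against 39.1% of all genes. OAS2 and BST2 had no untreated peak and lacked an IFNγ peak in WT_4 alone. In both settings they were therefore higher by construction. With canonical starts alone 1 member, OAS3, remained higher in every IFNγ library, against 0.768% of 20962 genes, since RSAD2 had no peak at that start. In lists of equal length the count was 2, OAS3 and RSAD2, against 0.692% of 19216 genes. OAS2 and MX1 then kept a peak in the KO_D2 IFNγ library alone, and BST2 had none.

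For the genotype, no member had percentiles that were apart between the 4 WT and the 4 KO libraries, against 5.65% of all genes. The difference of KO minus WT ran from −14.0 points at ISG15 (means 38.5 and 52.5) to 7.07 at BST2 (9.57 and 2.50). Its median over the 7 members was −0.680, against −4.42 over all genes. At RSAD2 the means were 52.9 in KO and 53.5 in WT. Over the 4 clones the exact permutation p ranged from 0.333, the smallest that 6 assignments allow, to 1, so the design cannot pass a threshold of 0.05 for the genotype.

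The response of each clone, its IFNγ value minus its untreated value, was compared next. It did not overlap between the WT and KO clones in 3 of 7 members, against 37.6% of all genes. These were OAS3 (25.9 and 29.4 points in WT, 33.0 and 76.7 in KO), MX1 (0 and 22.1 in WT, 22.9 and 49.4 in KO) and BST2 (0 and 9.98 in WT, 11.5 and 26.8 in KO). In lists of equal length the count was 0. At RSAD2 the responses were 50.3 and 41.9 in WT and 21.3 and 68.1 in KO. In OAS2, OAS3, MX1, ISG15, BST2 and RSAD2 the largest response was that of KO_D2, whose untreated list was the shortest of the 8. Over all genes too the median response was highest in KO_D2, at 5.00 points, against −1.84 in WT_4, 3.52 in WT_5 and 1.97 in KO_C5. In lists of equal length KO_D2 still had the largest response at OAS3 (0 untreated and 65.6 after IFNγ) and ISG15 (0 and 64.6). It alone kept a peak at OAS2 and MX1, BST2 had none, and at RSAD2 the largest response was that of WT_4 (3.40 and 72.7). A role of list length was not tested.

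Of 32 other genes of the pathway, 27 had a promoter peak in some library. In 3 of them the percentile was higher in every IFNγ than in every untreated library, against the same 0.789% of all genes, and in 0 it was lower. These were CMPK2 with the peak it shares with RSAD2, USP18 and SP100 (each with exact permutation p = 0.0286 and adjusted p = 1). USP18, which removes ISG15 from its targets, ranged from 44.5 to 55.6 in untreated and from 61.8 to 81.6 in IFNγ libraries. SP100, a nuclear body protein that restricts viruses, had no promoter peak untreated and percentiles of 30.1, 66.4, 36.2 and 43.3 after IFNγ. Higher after IFNγ in all 4 clones were 8 of the 27, against 13.3% of all genes. A higher mean after IFNγ was found in 25, against 71.95% of all genes. The median difference of the 27 was 8.94 points. That 8.94 is the value of APOBEC3G, which entered the 27 through a peak in the WT_5 IFNγ library alone. Several others, among them OASL, MX2, UBA7 and SP100, also had peaks in IFNγ libraries alone. For such genes a higher mean after IFNγ was fixed in advance.

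By group, 4 of 5 paralogs and neighbours had a promoter peak, and OASL and MX2 had one in the WT_5 IFNγ library alone, at percentiles 3.03 and 5.01. All 5 genes of ISG15 conjugation had one, 1 of them higher in every IFNγ library, and UBA7, the activating enzyme for ISG15, had means of 0 and 13.9. Of the RNA sensors and effectors all 5 had one and 0 were apart in this way. ADAR, the RNA editing enzyme, was higher after IFNγ in each clone (means 39.7 and 68.6, exact permutation p = 0.0571), RIGI had means of 31.0 and 54.2 and IFIH1 of 15.3 and 30.4. Among transcription factors 3 of 4 had one, and IRF9 had means of 20.0 and 52.5 with no peak in WT_4 in either state. Of the other restriction factors 10 of 13 had one, with means of 28.7 and 58.2 at PML, 77.2 and 94.1 at ISG20 and 36.0 and 52.9 at ZC3HAV1.

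**Figure D4:**
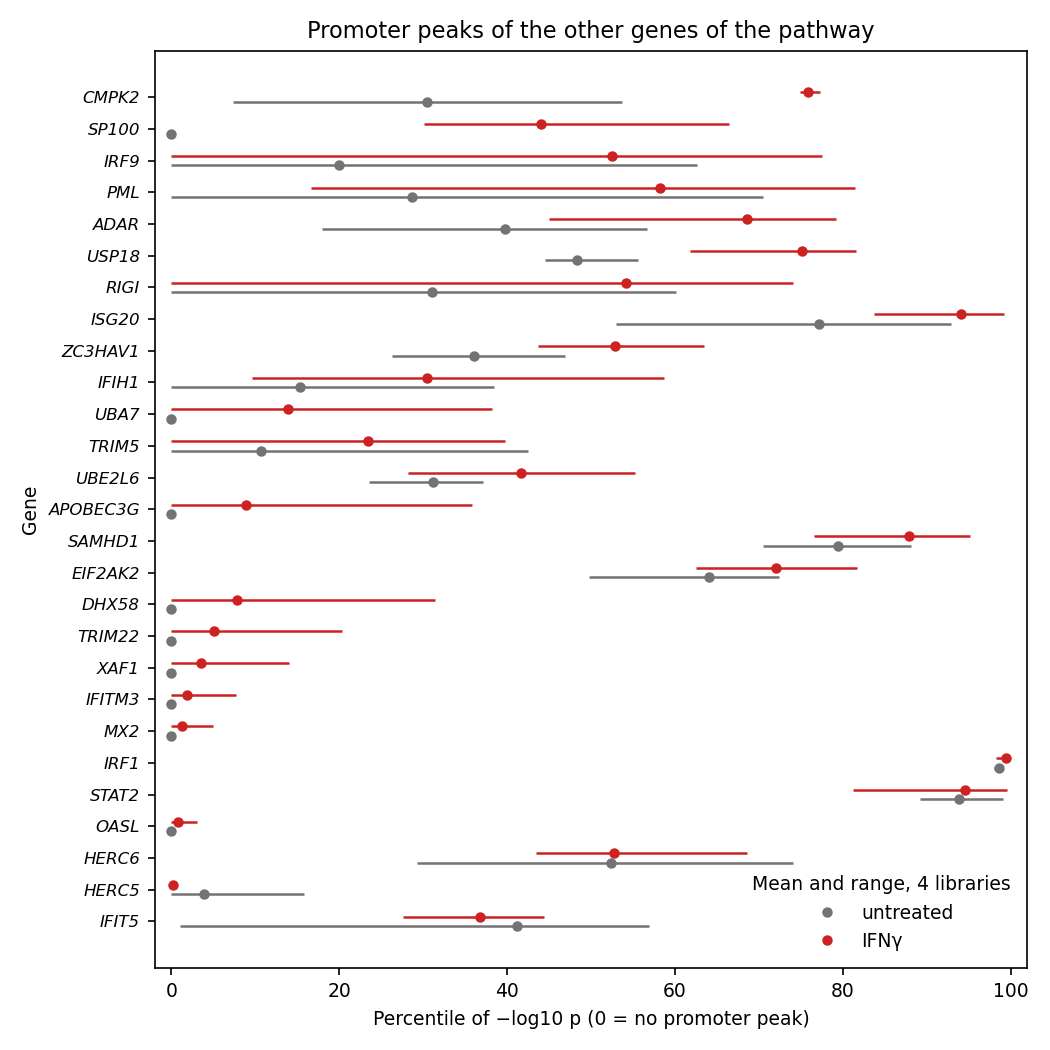
Mean and range over 4 libraries of the percentile of −log10 p (x axis, 0 for no promoter peak) for the 27 other genes of the pathway with a promoter peak (y axis), in grey for untreated and red for IFNγ libraries, ordered by the difference of the means. The ranges are apart for CMPK2, SP100 and USP18 and overlap for the rest.

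The genes outside all lists whose 8 percentiles were most like those of RSAD2, by Euclidean distance among 14690 protein-coding genes, were HLA-E (34.1 points), ERAP1 (38.9) and MDK (40.3). HLA-E encodes a non-classical MHC class I molecule and ERAP1 a peptidase that trims peptides for MHC class I. HLA-E ranged from 7.81 to 58.1 untreated and from 58.2 to 79.0 after IFNγ. Of the control promoters, ACTB stayed between 99.3 and 100.0 in all libraries, and GAPDH had means of 82.8 untreated and 89.1 after IFNγ. MTFP1, a target that the study assigns to ZBTB48, had a promoter peak in 3 of 4 WT and 1 of 4 KO libraries.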

How the data were processed

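FAIRE-seq peak lists of 8 libraries, 1 per library, were analysed. Per the labels and the methods of the study, the authors trimmed reads with Trimmomatic, aligned them to GRCh38 with Bowtie2 2.2.5, filtered on mapping quality with SAMtools 1.14, and ran MACS2 2.2.7.1 in paired-end mode. Whether input served as control, and how duplicates were treated, is not given in the sources used here. The deposited fold enrichment is a ratio of summit pileup to local background. MACS2 also gave the −log10 p and −log10 q that the authors deposited. The deposited score was not used.

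Chromosomes 1 to 22 and X were kept. For each gene of GENCODE 44, the peak with the highest −log10 p that overlapped by at least 1 bp a window of 1 kb either side of any start was taken, and its percentile within the list computed (Python 3.11.15, pandas 2.3.3, numpy 2.4.6). Summit pileups were solved from fold and p under the Poisson formula of MACS, and were whole within a relative tolerance of 0.0001 for 100% of 500 peaks tried per library. Total read depth is unknown from these lists, so intervals cover counting error alone.

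Treatment was tested by two-sided exact permutation over 70 assignments of 8 libraries, and genotype over 6 assignments of 4 clone means, with Benjamini-Hochberg adjustment over all genes with a promoter peak. By the labels, both libraries of a clone form a pair. Their deviations from the group means correlated across genes at 0.619 for the WT and 0.317 for the KO clones, the 2 clones of a genotype giving 1 value. Genes are not independent replicates. The members, the lists and the tests were chosen with earlier results of these data known. Named were all members, pathway genes higher in every IFNγ library, the 8 others with the largest difference, and the 3 genes most like the member with the largest difference. OASL, MX2, IFIT5 and APOBEC3G were named after their values were seen. Some listed genes are not reported here and were left out of the list counts. Code was tested on made-up lists with known answers. Alternatives were windows of 500 bp and 2 kb, canonical starts, −log10 q of at least 3, fold of at least 4, lists of equal length (16730 peaks), summits in the window, fold as the measure, a block for the clone, and leaving out each library in turn.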

Additional observations from a re-analysis of the deposited data

Results flagged for a closer look

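In groups of 4 libraries, a value far from the other 3 was looked for in 14 groups of members and found in 2. Both are groups with a single peak. Since no peak counts as 0, such a group stands out by construction, and the usual chance rate of about 1 in 20 groups does not apply. IFIT3 had a promoter peak at percentile 12.5 in untreated WT_5 and none in the other untreated libraries. MX1 had one at percentile 19.3 in untreated WT_5 and none in the other untreated libraries. The untreated list of WT_5 was the longest of the untreated lists, with 29567 peaks. In lists of equal length neither peak was left.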

How the results depend on the processing

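The mean number of members with a promoter peak per library stayed higher after IFNγ under each alternative, and between 1.58 and 3 higher when single libraries were left out. With canonical starts alone, 1 member in place of 2 was higher in every IFNγ library. In lists of equal length, 0 members in place of 3 had responses apart between WT and KO clones. Leaving out single libraries gave 2 to 6 members higher in every IFNγ library, where 6 came without WT_4 after IFNγ. It gave 2 to 6 higher in each clone, where 6 came without either library of WT_4, and 4 to 6 with responses apart, 5 without either library of WT_5 and 6 without either of KO_C5. With 1 clone left in an arm, responses were apart in 59.9% to 72.5% of all genes, so these counts say little about the members. Without WT_4, OAS2 and BST2 counted among the members higher after IFNγ by construction. No setting gave a member with WT and KO libraries apart.

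With the clone as a block, which pairs the 2 libraries of a clone, the difference stayed 41.3 points at OAS3 and 45.4 at RSAD2, both at p = 0.125, the smallest that the exact test over 16 sign changes allows, and no other call was affected. Leaving out 1 library gave differences of 32.7 to 46.8 points at OAS3 and 37.7 to 53.1 at RSAD2. The exact permutation p at OAS3 was then 0.0571 without KO_D2 after IFNγ (38.0 points), and at RSAD2 it was 0.0571 without any one of the IFNγ libraries (45.4 points without WT_4, 44.9 without WT_5, 45.7 without KO_C5 and 45.5 without KO_D2). Without WT_4 after IFNγ, the 1 IFNγ library with no peak at OAS2 or BST2, the differences were 35.2 points at OAS2 and 16.1 at BST2. The exact permutation p of 0.0286, the smallest possible with 1 library left out, was then fixed in advance. No untreated library had a promoter peak at either gene, so this p is no support for a difference. In lists of equal length OAS2 kept a peak in KO_D2 alone and BST2 had none.

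The sign of KO minus WT, never past the threshold, turned under some settings. RSAD2 was 0.784 with −log10 q of at least 3 and 12.9 in lists of equal length, where OAS3 was 0.124. With single libraries left out it ran from −17.7 to 16.3 at RSAD2, −32.1 to 6.25 at OAS3, −33.1 to 4.97 at ISG15, −6.76 to 19.0 at OAS2 and −9.46 to 15.2 at MX1. In these settings the clone that lost a library was represented by its other library alone, either untreated or IFNγ. The ranges therefore mix the treatment difference into KO minus WT and do not measure how stable the genotype difference is. The causes were not tested. With 2 clones per genotype and lists without read totals, a missing peak and a weak one cannot be told apart.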
